A study of Mus musculus with 3 samples.

Results

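Titin, nebulin, the M-band myomesins and the myosin-binding proteins organise the filaments of the sarcomere, the contractile unit of muscle, and 8 mouse genes that code for them were examined. They were taken by symbol from the deposited table of read counts per gene: Ttn, Neb, Myom1, Myom2, Myom3, Mybpc1, Mybpc2 and Mybph. All 8 were found among the 20162 genes of the table, each under 1 Ensembl identifier, and all 8 were among the 14478 genes that passed the filter on low counts. The libraries came from C2C12, a line of mouse myoblasts whose cells fuse into multinucleated myotubes once serum is low. Cells carried a lentivirus for 1 of 3 short hairpin RNAs (shRNA), stayed under puromycin selection as infected populations, and were differentiated for 7 days in medium with horse serum. The ShA and ShB libraries each came from cells with a different shRNA against Tead4, a DNA-binding transcription factor of the TEAD family, and the ShSC library came from cells with a control shRNA. There was 1 library per shRNA, so ShA and ShB are the only repeat of the Tead4 knockdown, and the labels name no repeat culture of any shRNA.

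A sarcomere is built from thick filaments of myosin and thin filaments of actin, held in register by very large scaffold proteins. Titin runs along each myosin filament from the Z-disc to the M-band, and nebulin lies along the actin filament and helps to set its length. Myomesins cross-link titin and myosin at the M-band in the middle of the sarcomere. Myosin-binding proteins C and H attach to the myosin filament in regular stripes on either side of it. Most of these genes are silent in dividing myoblasts and switch on as myotubes form.

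Counted reads numbered 19918954 in ShA and 15594305 in ShB, against 16412139 in ShSC. Levels are given as CPM, counts scaled to a common library size after TMM normalization (trimmed mean of M values). Tead4 (ENSMUSG00000030353) had 397 reads in ShA and 170 in ShB, against 1256 in ShSC, so that 25.2% and 13.8% of the control level was left. The defining markers of differentiated muscle were present in all 3 libraries. Skeletal actin Acta1 had 5333 CPM in ShA and 6440 CPM in ShB, against 7043 CPM in ShSC, and the fast troponin T gene Tnnt3 had 675 and 864 CPM, against 1704 CPM in ShSC.

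Of the 8 genes, nebulin and both C-type myosin-binding proteins fell with Tead4 shRNA, while titin lay near its control level in both libraries. Neb, Mybpc1 and Mybpc2 were left at 43.6%, 36.5% and 35.7% of control over both libraries, and Ttn at 93.9%. The 3 myomesins lay at 77.4% (Myom1), 73.9% (Myom2) and 82.3% (Myom3) of control, and Mybph at 59.9%. None of these 4 passed the test. By edgeR's quasi-likelihood test of both Tead4 shRNA libraries against the control library, 3 of the 8 genes were called lower and 0 higher at an adjusted p threshold of 0.05, where 4.48% of all tested genes were called lower and 5.34% higher. At an unadjusted p under 0.05, 4 of the 8 were lower and 0 higher, where 9.78% of all tested genes were lower and 11.9% higher, and DESeq2 and limma-voom also called 0 higher. Neb, Mybpc1 and Mybpc2 were also at least 2-fold lower in ShA alone and in ShB alone, with counting intervals that excluded no change. Among all tested genes, 5.88% met that rule in ShA and 4.74% in ShB. At least 2-fold higher were 0 of the 8 in either library, where 8.70% of all tested genes were in ShA and 6.41% in ShB. The median log2 fold change was -0.59 over the 8 genes and 0.02 over all tested genes. The test leaves 1 residual degree of freedom and assumes that the lone control library varies like the Tead4 shRNA libraries. In bulk RNA, fewer myotubes and less of a transcript per myotube cannot be told apart.

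**Figure D1:**
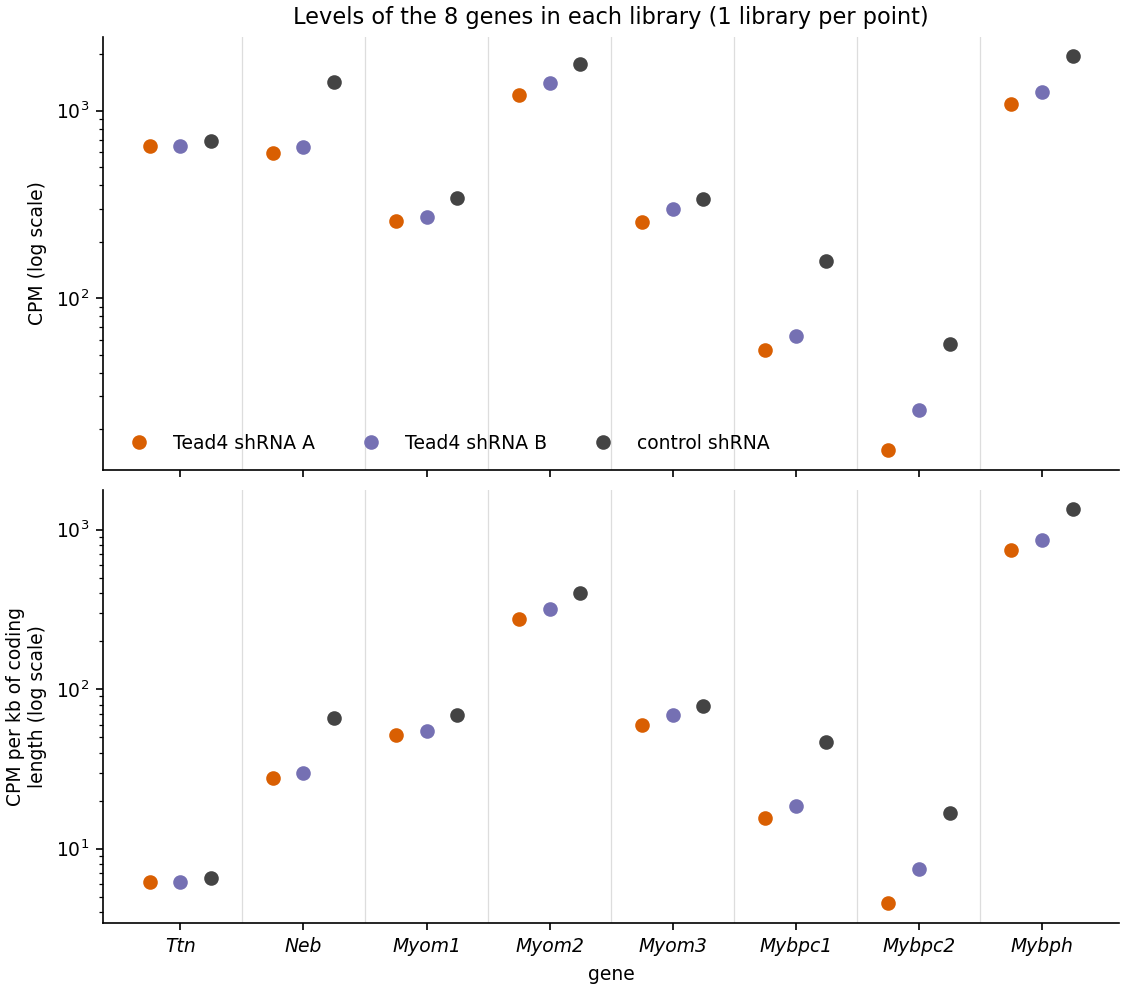
Level of each of the 8 genes in each library, as CPM in the upper panel and as CPM per kilobase of coding length in the lower one, both on log axes; each point is 1 library (ShA, ShB, then ShSC). Titin lies between 649 and 691 CPM in all 3 libraries, and nebulin lies at 596 and 640 CPM with Tead4 shRNA, against 1416 CPM with control shRNA.

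Titin (Ttn, ENSMUSG00000051747) had 13059 reads in ShA and 10224 in ShB, against 11094 in ShSC. In CPM these were 649 and 649, against 691. The log2 ratio to control was -0.09 in ShA (95% exact counting interval -0.13 to -0.05) and -0.09 in ShB (-0.13 to -0.05). Titin was thus slightly lower in both libraries, beyond counting error alone at this scaling, and total-count scaling gave -0.04 in both. With both libraries in the fit, the estimate was a log2 fold change of -0.09 (SE 0.24, 95% interval of the fit -0.59 to 0.41, edgeR adjusted p = 0.887). The interval leaves room for a change in either direction, so the test does not show that titin was unaffected.

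Nebulin (Neb, ENSMUSG00000026950) had 11987 reads in ShA and 10078 in ShB, against 22738 in ShSC. In CPM these were 596 and 640, against 1416. Both Tead4 shRNA libraries were low and close to each other, and the control library stood apart from them. The log2 ratio was -1.25 in ShA (-1.28 to -1.22) and -1.15 in ShB (-1.18 to -1.11). Nebulin fell by 1.20 on the log2 scale over both (SE 0.23, edgeR adjusted p = 0.00171).

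Titin and nebulin can also be set against each other inside a library, where no scaling between libraries enters. There were 0.918 nebulin reads per titin read in ShA (95% exact interval 0.895 to 0.941) and 0.986 in ShB (0.959 to 1.01), against 2.05 in ShSC (2.00 to 2.10). Nebulin took 47.9% of the reads of the pair in ShA and 49.6% in ShB, against 67.2% in ShSC. The intervals of the Tead4 shRNA libraries lay far below that of the control library. Nebulin reads per read of skeletal actin, the filament that nebulin lines, numbered 0.112 in ShA and 0.0993 in ShB, against 0.201 in ShSC. Titin reads per actin read numbered 0.122 and 0.101, against 0.0981 in ShSC.

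**Figure D2:**
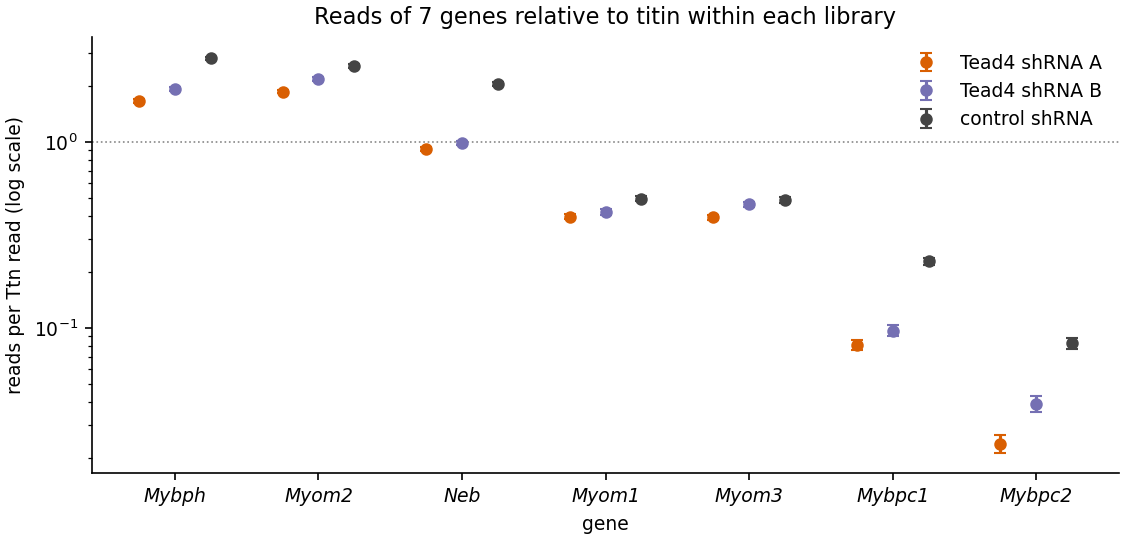
Reads of each of the other 7 genes per titin read within each library, on a log axis; points are ShA, ShB and ShSC from left to right, and bars are 95% exact counting intervals. Nebulin has 0.918 and 0.986 reads per titin read with Tead4 shRNA, against 2.05 with control shRNA.

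The 3 myomesin genes of the M-band lay below control in both libraries, by less than the spread the test allows. Myom2, the myomesin known from fast fibres and heart, was the most abundant of the 3. Myom2 (ENSMUSG00000031461) had 24331 reads in ShA and 22133 in ShB, against 28411 in ShSC, or 1209.5 and 1405 CPM, against 1769 CPM. Its log2 ratio was -0.55 in ShA (-0.57 to -0.52) and -0.33 in ShB (-0.36 to -0.31), and the fold change over both was -0.44 (SE 0.24, edgeR adjusted p = 0.317).

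Myom1 (ENSMUSG00000024049), the myomesin found in all striated muscle, had 5179 reads in ShA and 4279 in ShB, against 5489 in ShSC. In CPM these were 257 and 272, against 342. Myom3 (ENSMUSG00000037139), the form known from slow and intermediate fibres, had 5142 reads in ShA and 4715 in ShB, against 5409 in ShSC, or 256 and 299 CPM, against 337 CPM. For both genes the control library was the highest of the 3. The fitted log2 fold change was -0.37 for Myom1 (SE 0.23, edgeR adjusted p = 0.385) and -0.28 for Myom3 (SE 0.24, adjusted p = 0.559). Of all gene pairs among the 8, these 3 genes formed the closest. The distance between the pairs of log2 ratios was 0.14 for Myom1 and Myom2, 0.16 for Myom1 and Myom3 and 0.22 for Myom2 and Myom3.

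The mix of myomesins was similar in the 3 libraries. Myom2 took 70.2% of myomesin reads in ShA and 71.1% in ShB, against 72.3% in ShSC. Myom1 took 14.9% and 13.7%, against 14.0% in ShSC. Myom3 took 14.8% and 15.1%, against 13.8% in ShSC. The share of Myom3 was above control in both libraries beyond counting error (14.5 to 15.2% in ShA and 14.8 to 15.6% in ShB, against 13.4 to 14.1% in ShSC), and that of Myom2 was below it. In a later annotation (GENCODE M21) 207 bases of Myom1 exons lie opposite exons of Myl12a, a non-muscle myosin light chain gene listed in the table as 2900073G15Rik, and the library kit did not mark strand. That gene had 20680 reads in ShA and 19654 in ShB, against 18814 in ShSC, and its part in the Myom1 count was not tested.

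The myosin-binding proteins held 2 of the 3 genes that fell. Mybpc1, the slow form of myosin-binding protein C, and Mybpc2, its fast form, both fell, and Mybph, the related protein H, lay lower without passing the test. The stretch of 250 bases before to 50 bases after the annotated start of these 3 genes, and that of titin for comparison, are shown because the knocked-down factor belongs to a family that binds the MCAT element, CATTCC. The sequences are from RefSeq on build GRCm38.p6, read 5′ to 3′ along the strand of the gene, with CATTCC or its reverse complement GGAATG in capitals.

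Mybph, chr1:134193198-134193497, plus strand: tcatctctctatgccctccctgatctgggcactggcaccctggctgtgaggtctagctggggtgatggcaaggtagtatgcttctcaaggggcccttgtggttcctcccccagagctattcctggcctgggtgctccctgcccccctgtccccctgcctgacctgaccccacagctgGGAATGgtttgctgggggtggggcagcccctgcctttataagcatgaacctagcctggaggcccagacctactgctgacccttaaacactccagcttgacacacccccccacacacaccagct
Mybpc2, chr7:44524620-44524919, minus strand: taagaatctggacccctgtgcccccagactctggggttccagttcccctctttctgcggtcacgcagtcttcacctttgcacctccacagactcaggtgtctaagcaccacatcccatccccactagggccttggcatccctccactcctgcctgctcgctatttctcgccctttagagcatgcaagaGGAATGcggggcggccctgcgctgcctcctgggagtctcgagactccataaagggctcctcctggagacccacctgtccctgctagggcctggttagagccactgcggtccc
Mybpc1, chr10:88605103-88605402, minus strand: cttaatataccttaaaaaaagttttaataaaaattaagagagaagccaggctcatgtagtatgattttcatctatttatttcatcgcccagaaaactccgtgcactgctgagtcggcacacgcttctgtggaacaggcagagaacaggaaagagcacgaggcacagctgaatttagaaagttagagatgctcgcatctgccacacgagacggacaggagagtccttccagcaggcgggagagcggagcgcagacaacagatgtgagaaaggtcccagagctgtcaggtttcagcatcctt
Ttn, chr2:76982498-76982797, minus strand: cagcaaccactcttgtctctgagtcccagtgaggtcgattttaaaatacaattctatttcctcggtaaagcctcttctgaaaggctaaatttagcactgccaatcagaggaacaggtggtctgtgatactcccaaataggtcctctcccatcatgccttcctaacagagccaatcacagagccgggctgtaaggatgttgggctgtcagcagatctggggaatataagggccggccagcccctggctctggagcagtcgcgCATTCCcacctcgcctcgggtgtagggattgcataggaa

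Promoter windows were given for 6 of the 8 genes, Neb and Myom2 being the others. Searched on both strands, CATTCC occurred in 3 of these 6, Mybph, Mybpc2 and Ttn, and in 14.7% of 32851 such windows of the same length. In Mybph it lay at bases -73 to -68 from the start, directly after the E-box CAGCTG at -79 to -74. In Mybpc2 it lay at -62 to -57 and in Ttn at 12 to 17, past the start. The nearest GENCODE M21 start of Mybpc2 is 13 bases downstream of the RefSeq start used here, and for the other 5 genes it is at most 3 bases away. Of the 3 genes that fell, Mybpc2 held these letters in its window, Mybpc1 did not, and Neb had no window. The E-box CANNTG, the type of motif that myogenic bHLH factors bind, occurred in all 6 windows and in 72.3% of all windows. A MEF2 site occurred in the windows of Ttn and Myom3 (3.19% of all windows) and a CArG box, the type that Srf binds, in that of Myom1 (1.63%). These matches describe the letters of the windows and show no binding. Sites outside the windows were not searched, and the part of any motif in the changes was not tested.

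Mybpc1 (ENSMUSG00000020061) had 1061 reads in ShA and 990 in ShB, against 2539 in ShSC. In CPM these were 52.7 and 62.8, against 158. Both Tead4 shRNA libraries were low, and the control library was higher than either. The log2 ratio was -1.58 in ShA (-1.69 to -1.48) and -1.33 in ShB (-1.44 to -1.23). Mybpc1 fell by 1.45 on the log2 scale over both (SE 0.22, edgeR adjusted p = 9.59e-05).

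Mybpc2 (ENSMUSG00000038670) had 312 reads in ShA and 399 in ShB, against 916 in ShSC. In CPM these were 15.5 and 25.3, against 57.0. It was the member for which the hairpins differed most, and both lay below control. The log2 ratio was -1.88 in ShA (-2.07 to -1.69) and -1.17 in ShB (-1.345 to -1.001), and ShB was 0.71 above ShA on the log2 scale (0.49 to 0.93, counting error only). Mybpc2 fell by 1.49 over both (SE 0.26, edgeR adjusted p = 0.000503).

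Mybph (ENSMUSG00000042451) had 21667 reads in ShA and 19672 in ShB, against 31165 in ShSC. In CPM these were 1077 and 1248, against 1941. The log2 ratio was -0.85 in ShA (-0.87 to -0.82) and -0.64 in ShB (-0.66 to -0.61). The fitted log2 fold change was -0.74 (SE 0.24, edgeR adjusted p = 0.0553), just outside the threshold. The gene passed with DESeq2 (adjusted p = 0.0301) and in edgeR with no filter on low counts (adjusted p = 0.0269). In the later annotation 1162 bases of Mybph exons lie opposite exons of the adenosine receptor gene Adora1. Adora1 had 216 reads in ShA and 158 in ShB, against 218 in ShSC, far fewer than Mybph in every library. Opposite-strand exons also overlap 252 bases of Mybpc1, 192 of Mybpc2, 453 of Ttn and 45 of Neb, all from predicted genes, and none of Myom2 or Myom3. The one opposite titin had 69 reads in ShA and 66 in ShB, against 26 in ShSC, and the one opposite nebulin had 0 in all 3. Those opposite Mybpc1 and Mybpc2 were not analysed here, and their part in these counts was not tested.

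Within the 3 myosin-binding genes, protein H made up most of the reads. Its share was 94.0% in ShA and 93.4% in ShB, against 90.0% in ShSC. Mybpc1 took 4.61% and 4.70%, against 7.33% in ShSC, and Mybpc2 took 1.35% and 1.89%, against 2.65% in ShSC. For all 3 genes the 95% exact intervals of the Tead4 shRNA libraries did not reach that of the control library. Mybpc2 reads per Mybpc1 read numbered 0.294 in ShA and 0.403 in ShB, against 0.361 in ShSC, with the control library between the others.

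**Figure D3:**
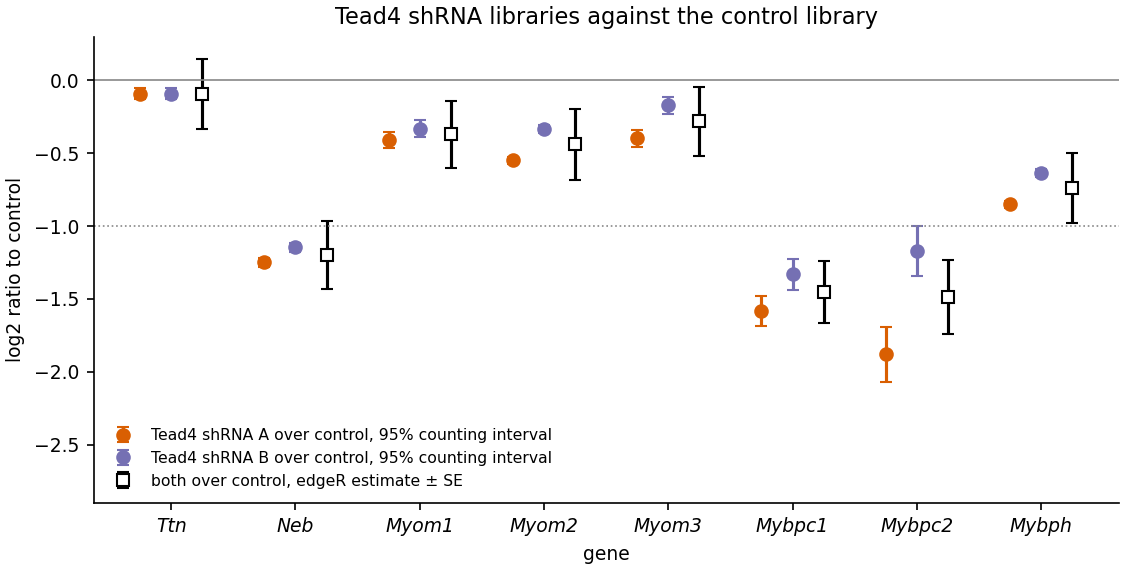
Log2 ratio of each Tead4 shRNA library to the control library for the 8 genes (filled points, with 95% exact counting intervals) and the edgeR log2 fold change over both (open squares, with SE); the dotted line marks a 2-fold decrease. Neb, Mybpc1 and Mybpc2 lie below that line in both libraries, and Ttn lies at -0.09 in both.

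Across the 8 genes, ShB lay above ShA for 7, by 0.08 (Myom1) to 0.71 (Mybpc2) on the log2 scale, each with a counting interval above 0. Among all tested genes, that interval lay above 0 for 25.3% and below 0 for 25.4%. Whether such an interval excludes 0 also depends on the number of reads, and these shares were not matched for it. For titin the difference was 0.00 (-0.04 to 0.04). The median size of this difference over all tested genes was 0.23. Tead4 itself was lower in ShB than in ShA. With 1 library per hairpin, these differences have no test.

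Per kilobase of coding length, the highest and the lowest of these genes differed far more than any of them did between libraries. Genes next to each other in level could differ less than that, with Myom1 1.04-fold above Neb in ShSC. Coding lengths, the longest coding sequence of each gene in GENCODE M21, ran from 1449 bases for Mybph to 105639 bases for Ttn. Mybph had 743 and 862 CPM per kilobase in ShA and ShB, against 1339.5 in ShSC, and Myom2 had 276 and 320, against 403. Myom3 followed with 59.2 and 69.3, against 78.0, then Myom1 with 51.5 and 54.3, against 68.4, and Neb with 27.8 and 29.8, against 66.0. Mybpc1 had 15.6 and 18.6, against 46.8 in ShSC. Lowest were Mybpc2 with 4.55 and 7.43, against 16.7, and Ttn with 6.15 and 6.14, against 6.54, and these last genes changed places in ShA. The order of the others was the same in all 3 libraries, but with the total exon length in place of the coding length Neb and Mybpc1 stood above Myom1 in ShSC. Among 15440 genes with a coding length, Mybph ranked 108 in ShA and 105 in ShB, against 50 in ShSC. Titin transcripts vary in length through splicing, and the isoforms present were not measured here. How evenly reads covered long and short transcripts was not measured either, so levels per kilobase of genes of very unlike length are only rough.

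As a sum, the 8 genes took 0.415% of all counted reads in ShA and 0.465% in ShB, against 0.657% in ShSC. The myosin-binding genes took 0.116% and 0.135%, against 0.211% in ShSC. The myomesins took 0.174% and 0.200%, against 0.240% in ShSC.

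The other genes that belong to the same structures moved in several directions. Beside every list count from here on stands the share over all tested genes, 5.34% called higher and 4.48% lower. A single call in a short list is not read as a result about that list. Among 11 relatives of the 8 genes the test called 3 higher and 0 lower (0 lower also at an unadjusted p under 0.05 and with DESeq2 and limma-voom), and the median log2 fold change was 0.05. Palladin (Palld), an actin-binding protein related to myopalladin, rose by 1.13 (SE 0.25), Lasp1, a small member of the nebulin family, by 0.98 (SE 0.25) and myotilin (Myot), a Z-disc protein, by 1.90 (SE 0.33). Nrap, a nebulin relative of developing myofibrils, had a log2 fold change of 0.61 (SE 0.24), a value named after it was seen. Cardiac Mybpc3 had 6 reads in ShA and 1 in ShB, against 11 in ShSC, too few for a comparison.

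Of 13 partners of titin, 2 rose and 2 fell, with a median of -0.22. Telethonin (Tcap), which caps titin at the Z-disc, rose by 1.15 (SE 0.26), and Cryab, a small heat shock protein that binds titin, rose by 0.94 (SE 0.26). The ubiquitin ligase Trim63 (MuRF1), which binds titin near the M-band, fell by 1.27 (SE 0.24), and Ankrd2, an ankyrin repeat protein of the titin I-band, fell by 1.18 (SE 0.33). The call of Ankrd2 ended with DESeq2. Tcap had 34.9 CPM in ShA and 48.6 CPM in ShB, against 18.8 CPM in ShSC, and Trim63 had 24.2 and 34.2 CPM, against 70.3 CPM in ShSC.

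Of 10 tested genes that work with nebulin on the thin filament, 1 rose and 0 fell (2 were lower at an unadjusted p under 0.05, and 0 with DESeq2 or limma-voom); the median of -0.06 and the mean of 0.01 differed in sign. The gene that rose was Xirp1, an actin-binding repeat protein, by 1.60 (SE 0.25). The nebulin-binding kelch protein Klhl41, listed as Kbtbd10, had 323 CPM in ShA and 522 CPM in ShB, against 670 CPM in ShSC, and leiomodin Lmod3 had 135 and 170 CPM, against 211 CPM. Neither passed the test. Capza1 of the same list lay higher, also without passing, at a log2 fold change of 0.59 (SE 0.23). Klhl40, listed as Kbtbd5, lay at 0.05 (SE 0.22). All of these were named after their values were seen.

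Lower calls outnumbered higher ones among 10 tested myosin heavy and light chain genes, at 5 and 1, and the median was -0.71. The embryonic heavy chain Myh3 fell to 1442 CPM in ShA and 1297 CPM in ShB, against 4228 CPM in ShSC, and the light chains Myl4 and Myl1 fell by 1.04 (SE 0.24) and 1.08 (SE 0.29). The fast heavy chain Myh4 rose to 1317 and 1277 CPM, against 636 CPM in ShSC. The call of Myl1 ended with RLE scaling and with DESeq2, and both settings left 3 lower calls in the list. That of the heavy chain Myh7 ended with RLE and upper-quartile scaling (edgeR adjusted p = 0.0585 and 0.0639).

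Of 8 genes of thick filament assembly and M-band metabolism, muscle creatine kinase Ckm, an enzyme bound at the M-band, fell by 1.06 (SE 0.24), and 0 rose (0 also at an unadjusted p under 0.05 and with DESeq2 and limma-voom); the median was -0.18. The myosin chaperone Unc45b had 143 CPM in ShA and 148 CPM in ShB, against 155 CPM in ShSC, a value named after it was seen. Of 7 regulators of splicing, among them Rbm20, which controls titin isoforms in heart, 0 passed the edgeR test in either direction, and 0 with DESeq2 or limma-voom, with a median of 0.01. At an unadjusted p under 0.05, 1 of them was lower, Rbm24. Mbnl1 and Rbfox2 (listed as Rbm9) had log2 fold changes of 0.32 (SE 0.25) and 0.20 (SE 0.23).

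**Figure D4:**
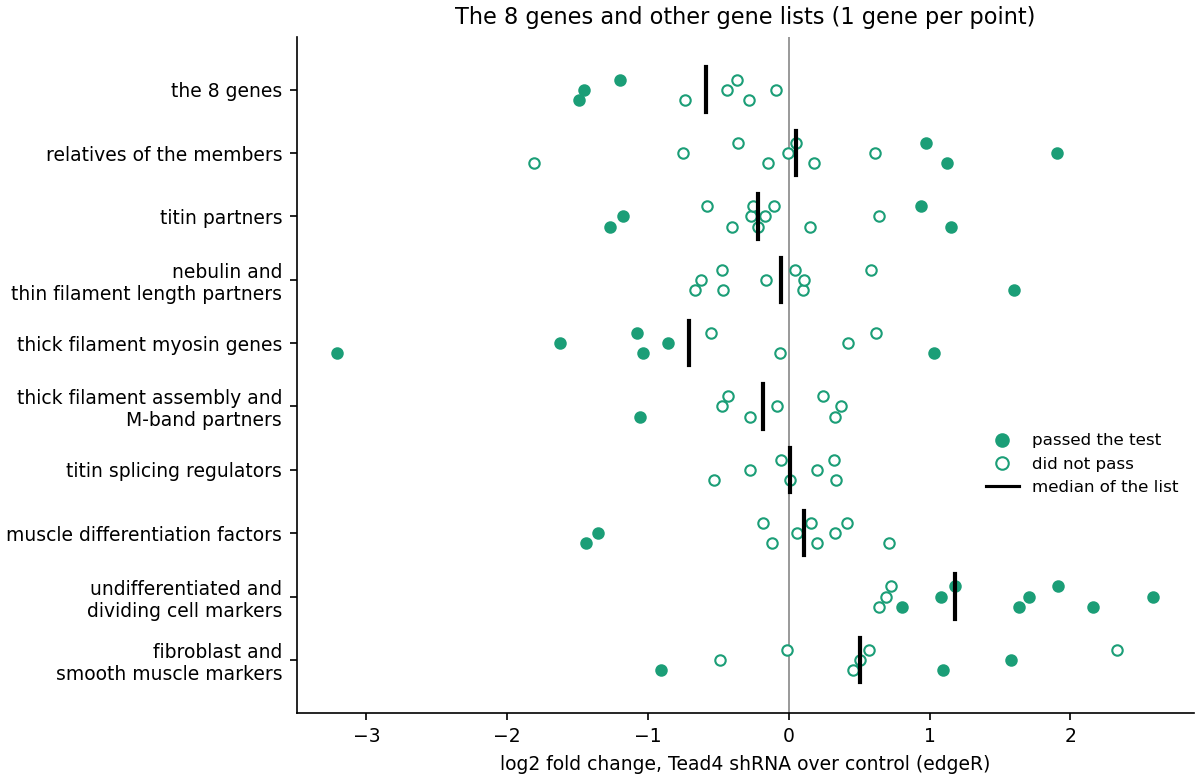
EdgeR log2 fold change over both Tead4 shRNA libraries against control for each tested gene of the 8 and of 9 other lists; filled points passed the test, open points did not, and black bars are list medians. The 8 genes lie from -1.49 to -0.09, with 3 filled, and the markers of undifferentiated and dividing cells lie above 0.

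Among 10 muscle transcription factors, 2 fell and 0 rose; the median of 0.11 and the mean of -0.12 differed in sign. At an unadjusted p under 0.05, 1 was higher, Myod1 (edgeR adjusted p = 0.0570), which 4 of the 7 alternatives planned called higher (total-count scaling, no filter on low counts, limma-voom and the newer edgeR quasi-likelihood steps). Myogenin (Myog), which acts as myoblasts differentiate, fell to 308 CPM in ShA and 365 CPM in ShB, against 914 CPM in ShSC, and Myf5 fell by 1.35 (SE 0.24). When the pair of log2 ratios of each member was compared with those of 7661 other genes of at least 20 CPM, the nearest to Mybpc1 was Myog. Its log2 ratios were -1.57 in ShA and -1.33 in ShB, at a distance of 0.014, and only 2 genes lay within 0.1 of Mybpc1. The next was D2Ertd391e. For Mybpc2 no gene lay within 0.1, and the nearest were March11 and Cebpb at 0.16 and 0.19. For Neb 12 genes lay within 0.1, with AC046145.1 and the asparaginyl-tRNA synthetase Nars nearest. Around the other 5 genes the field was denser, with 51 genes within 0.1 of Mybph, 144 of Myom2, 223 of Myom1, 240 of Myom3 and 425 of Ttn. Their nearest genes were Lass6 and Blzf1 for Mybph, Cog6 and Aen for Myom2, Ptprd and Stard3 for Myom1, Tpi1 and Ankrd32 for Myom3, and Nr2c1 and Foxk2 for Ttn. Likeness here rests on 3 libraries, and both ratios share the control library.

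The listed markers of undifferentiated and dividing cells were higher in both Tead4 shRNA libraries, where Neb, Mybpc1 and Mybpc2 were lower. Of 11 markers of undifferentiated and dividing cells, 8 rose and 0 fell (0 lower also at an unadjusted p under 0.05 and with DESeq2 and limma-voom), and their summed level was 386 CPM in ShA and 421 CPM in ShB, against 157 CPM in ShSC. Cyclin D1 (Ccnd1) rose by 2.16 (SE 0.25), Top2a by 1.91 (SE 0.25), Spry1 by 1.18 (SE 0.26) and Hes1 by 0.80 (SE 0.25). Pax7, Id2 and Id3 did not pass (edgeR adjusted p = 0.204, 0.0873 and 0.0576). Myf5, a myoblast factor kept in the list of muscle transcription factors, went the other way, with a fall of 1.35 (SE 0.24). None of the 11 was at 0 in any library. The call of Hes1 ended with RLE scaling, DESeq2 and limma-voom. Of 9 tested markers of fibroblasts and smooth muscle, 2 rose and 1 fell, with summed levels over all 10 of 8351 CPM in ShA and 5717 CPM in ShB, against 4373 CPM in ShSC. The median log2 ratio to control of the tested markers was 0.84 in ShA but 0.06 in ShB. Acta2 rose by 1.09 (SE 0.27) and Tagln by 1.58 (SE 0.26), while Dcn fell by 0.91 (SE 0.23), and the defining smooth muscle gene Myh11 had 5, 0 and 3 reads in ShA, ShB and ShSC. The call of Acta2 ended with the newer edgeR quasi-likelihood steps. The part of any cells with these markers in the lower levels of Neb, Mybpc1 and Mybpc2 was not tested.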

How the data were processed

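Polyadenylated RNA of 3 C2C12 libraries was sequenced as single-end reads of 72 bases on a kit that does not mark strand, per the labels. The authors' deposited table held raw read counts per Ensembl gene, which were used for every result, and a normalized score, which equalled the raw count times 1 factor per library (0.801 in ShA, 1.02 in ShB and 1.00 in ShSC) and was used only as another scaling. Per the submitters' processing notes, mm9, DESeq, Cufflinks 0.8.2 and TopHat 1.0.12 are named, without stated roles. How reads were counted, on which annotation release and with what handling of reads that fit several genes is not given in the sources used here.

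Genes were tested in edgeR 4.0.16 under R 4.3.3 (filterByExpr, TMM, quasi-likelihood F test, Benjamini-Hochberg over 14478 genes). The biological coefficient of variation was 16.4%, with 1 residual degree of freedom and 20.9 prior degrees of freedom. P-values therefore reflect no more than how ShA and ShB differ over the tested genes. The lone control library adds nothing to that spread. SE is the absolute log2 fold change over the square root of F. Each library was also set against control as a ratio of TMM-scaled counts; its exact Clopper-Pearson interval, at 95%, covers counting error only. The fit was also run on counts simulated with the same fitted spread in every library, and the intervals on counts with counting error alone. Such runs cannot check whether the lone control library varies like the others. DESeq2 1.42.0 and limma-voom 3.58.1 were alternatives. Of the identifiers, 18701 matched GENCODE M21, used for lengths and overlaps. The members and lists were chosen with earlier results of these data known. Named genes were the 8 members, Tead4 and up to 4 called genes of highest mean CPM in each list (or 2 uncalled ones). The 2 genes nearest to each member were also named, with symbols of the Gm and Rik type skipped. Every other gene was named after its values were seen.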

Additional observations from a re-analysis of the deposited data

How the results depend on the processing

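Neb, Mybpc1 and Mybpc2 were called lower under all 7 alternatives planned (RLE, upper-quartile and total-count scaling, no filter on low counts, DESeq2, limma-voom and the newer edgeR steps), with adjusted p from 1.85e-05 to 0.00516 for Neb, 8.64e-09 to 0.000752 for Mybpc1 and 6.24e-08 to 0.00336 for Mybpc2. Mybph was called under 2 of the 7, at a log2 fold change of -0.75 with DESeq2 and -0.73 with no filter, and its adjusted p ran from 0.0269 to 0.106. Titin and the 3 myomesins were called under none of them. With the dispersion taken over all 3 libraries as 1 group and a likelihood-ratio test, an alternative chosen after seeing the data, 0 genes were called higher and 0 lower among all genes and 0 among the 8 (540 genes at an unadjusted p under 0.05). There Neb had a log2 fold change of -1.20, Mybpc1 of -1.45 and Mybpc2 of -1.48, each with an adjusted p = 0.885. In that fit the difference between the groups counts as spread. DESeq2 called 464 genes higher and 374 lower, against 773 and 649 with edgeR; the cause was not tested.

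Without 1 of the Tead4 shRNA libraries the value is a ratio of the other to control, with no test. These ratios ran from -1.25 to -1.15 for Neb, -1.58 to -1.33 for Mybpc1, -1.88 to -1.17 for Mybpc2, -0.85 to -0.64 for Mybph, -0.55 to -0.33 for Myom2, -0.41 to -0.33 for Myom1 and -0.40 to -0.17 for Myom3, and were -0.09 both times for Ttn. Other scalings moved every ratio by at most 0.05 on the log2 scale and turned none of the 64 recomputed ratios round, though 15 of them left the counting interval of the TMM-scaled ratio; titin moved to -0.04 in both libraries with total counts. No paired analysis was possible with 1 library per shRNA. Mybpc2, with 312 to 916 reads, has the widest counting intervals of the 8.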
